A study of Mus musculus with 4 samples.

Results

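The miR-30 family was examined in small RNA sequencing data from mouse aorta as 8 mature microRNAs (miRNAs), taken by name from the 1152 entries listed for each library. They were the 5p arms miR-30a-5p, miR-30b-5p, miR-30c-5p, miR-30d-5p and miR-30e-5p and the 3p arms miR-30a-3p, miR-30c-2-3p and miR-30e-3p. Each of the 8 was listed in every library and reached a mean of at least 1 count per 1000000 listed reads (CPM), the level set for testing, which 479 entries reached in all. The study profiled the aortas of 12-week, wild type C57BL/6 mice in a model of vascular calcification driven by chronic kidney disease (CKD). The groups are Sham and CKD, with 2 libraries each, and each library pools RNA of 4 samples. Per the labels' protocols, the poles of the left kidney and, 1 week later, the right kidney were taken out, followed by 4 weeks on a diet with 2% phosphate and water with 0.45% NaCl. The labels give this same treatment text for Sham and CKD, so the handling of the Sham mice cannot be stated. Nothing in the labels says whether pools of a group came from separate sets of mice, so p-values speak only to the spread among these libraries, and that may be technical.

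A miRNA is cut from a hairpin precursor with a 5p and a 3p arm. Usually the Argonaute complex retains mainly 1 of the arms as the guide strand, and the other, passenger arm is degraded. The guide recognises its target mRNAs chiefly through its seed, bases 2 to 8 from the 5′ end, so miRNAs with the same seed are grouped as a family. miR-30 miRNAs are abundant in many mesenchymal and epithelial tissues. Their 5p arms are known as repressors of Runx2 and Smad1, which drive osteogenic differentiation, and miR-30b and miR-30c have been studied for this role in vascular smooth muscle calcification.

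The mature sequences were available from RefSeq (GRCm38.p6) for 6 of the 8 members, and the 5p arms among them are shown first because they share their seed, written in capitals, while differing toward the 3′ end.
miR-30a-5p: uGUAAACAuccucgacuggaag
miR-30c-5p: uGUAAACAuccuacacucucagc
miR-30e-5p: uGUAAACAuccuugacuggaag
The 3p arms, printed in the same way, carry other seeds, so a 5p and a 3p arm of this family address different targets. miR-30c-1-3p, not one of the 8, is added because it is the 3p arm of the second hairpin that yields miR-30c-5p.
miR-30a-3p: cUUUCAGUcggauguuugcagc
miR-30e-3p: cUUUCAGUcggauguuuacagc
miR-30c-2-3p: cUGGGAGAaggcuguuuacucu
miR-30c-1-3p: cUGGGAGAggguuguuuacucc
Counting positions from 1 at the 5′ end, miR-30a-5p and miR-30e-5p differ by the single substitution C13U, and miR-30a-3p and miR-30e-3p by G18A. The 2 miRNAs of each such pair can be split correctly only if a read's mismatches were resolved. The sources used here do not state how the authors' counting did this, so their separate values are uncertain and their sums are given as well.

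The genes of the miRNAs printed above lie in 2 groups on GRCm38. Those of miR-30b and miR-30d, for which no sequence was available, were not located here. Mir30a (chr1:23272269-23272339, plus strand) overlaps no other annotated gene, and Mir30c-2 (chr1:23291701-23291784, plus strand) lies 19361 bases further on and overlaps an exon of the long noncoding RNA gene Gm27028 on the same strand. Mir30e (chr4:120772606-120772697, minus strand) and Mir30c-1 (chr4:120769534-120769622, minus strand) are 2983 bases apart, in an intron of Nfyc, which encodes a subunit of a CCAAT-binding transcription factor. The Mir30c-1 and Mir30c-2 hairpins are printed below with both mature arms in capitals, since they yield the same 5p arm but distinguishable 3p arms.
Mir30c-1: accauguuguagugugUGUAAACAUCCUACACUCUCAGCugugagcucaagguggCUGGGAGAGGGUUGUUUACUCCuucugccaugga
Mir30c-2: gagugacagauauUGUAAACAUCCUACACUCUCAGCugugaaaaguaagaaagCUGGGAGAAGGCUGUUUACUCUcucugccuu
Reads of miR-30c-5p therefore cannot be assigned to either hairpin, whereas the 3p arms of the 2 hairpins differ by the substitutions A9G, C12U and U22C, read from miR-30c-2-3p to miR-30c-1-3p.

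The scale of the values bears on every comparison between the groups. Each library sums to 1000000 CPM over between 16658810 and 17532748 recovered reads. The smooth muscle miRNA miR-143-3p held 72.5% to 79.8% of the reads in Sham and 40.8% to 41.1% in CKD. The rest share what it leaves, and the median difference of all 479 tested entries was 1.34 on the log2(CPM + 1) scale, a 2.53-fold higher level in CKD. Differences are therefore given on the deposited scale, and then relative to this shared shift, after trimmed-mean (TMM) scaling of the CPM, which brought the median of all tested entries to -0.00083. TMM takes most miRNAs as unchanged, which these data cannot show. In bulk aorta, fewer cells of a type and less RNA per cell cannot be told apart.

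All 5 of the 5p arms were abundant and stood higher in CKD on the deposited scale, at close to 3 times their Sham level. miR-30c-5p, the family's highest by mean level and the 19th most abundant entry of all, had 2542 and 3950.1 CPM in Sham against 9509.6 and 8881 CPM in CKD. miR-30a-5p had 2315 and 3303 CPM in Sham against 10474 and 8068 CPM in CKD. miR-30d-5p had 2264 and 3336 CPM in Sham against 8725 and 7779 CPM in CKD. In each of these, the lower CKD library was more than 2 times the higher Sham library, and the groups did not overlap. The other 5p arms were less abundant. miR-30e-5p had 1079.6 and 1742 CPM in Sham against 4609.55 and 3496 CPM in CKD, and miR-30b-5p, studied with miR-30c as a Runx2 repressor, had 924 and 1371 CPM in Sham against 3959 and 3776 CPM in CKD. Sham 1 was the lowest library and CKD 1 the highest for all 5.

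The deposited differences of the 5p arms lay between 1.54 for miR-30c-5p (SE 0.33, limma adjusted p = 0.0021) and 1.78 for miR-30b-5p (SE 0.37, limma adjusted p = 0.0019). By limma with Benjamini-Hochberg adjustment over all 479 entries, all 5 rose, as did miR-30e-3p, so 6 of the 8 members were called higher, beside 82.9% of all tested entries called higher, 1.04% called lower and 83.9% called in either direction. Both CKD libraries lay above both Sham libraries for 7 of the 8, beside 91.2% of all tested entries, and below them for none, beside 1.46%. The median over the 8 members was 1.54, beside 1.34 over all tested entries. The share called is thus close to the background, and the deposited scale alone shows little about this family. Without CKD 1 the count of members called was 0 (limma; 4 had an unadjusted p under 0.05), and without CKD 2 it was 3.

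**Figure D1:**
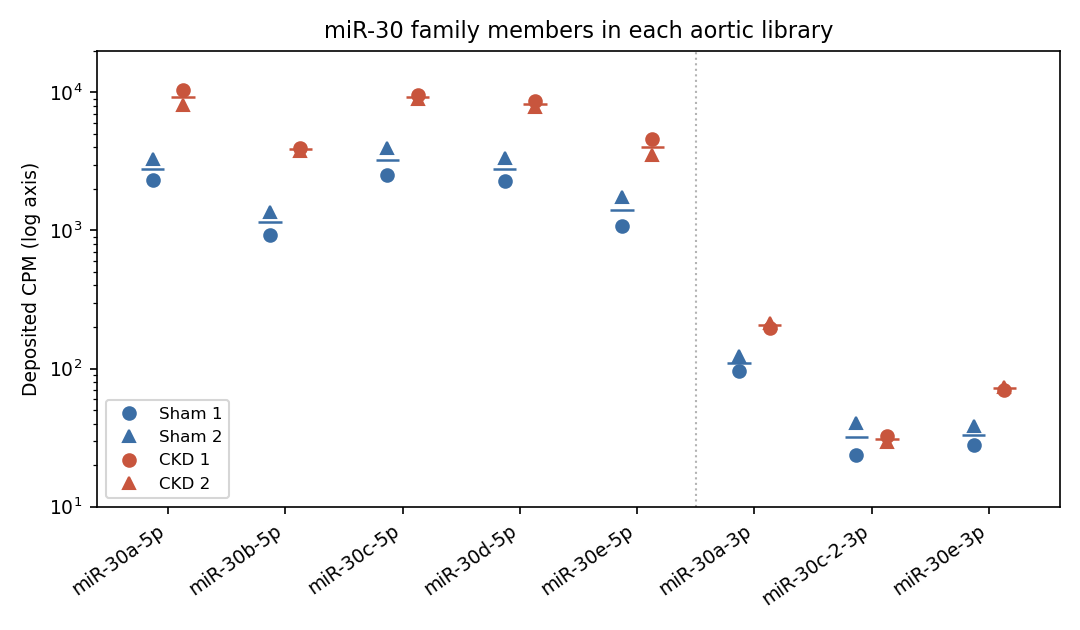
Deposited CPM (log axis) of the 8 miR-30 members in the Sham (blue) and CKD (red) libraries, with circles for replicate 1, triangles for replicate 2 and short lines for group means. The 5p arms, left of the dotted line, all sit higher in CKD, while the groups overlap for miR-30c-2-3p, at 23.7 and 40.5 CPM in Sham against 32.7 and 29.3 CPM in CKD.

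As a whole, the 5p arms took up 0.912% and 1.37% of all listed reads in Sham, against 3.73% and 3.20% in CKD. The group means were 1.14% ± 0.324 (SD, n = 2) and 3.46% ± 0.373 (SD, n = 2), a difference of 2.32 percentage points. Both CKD libraries lay above both Sham libraries (exact two-sided permutation p = 0.333, the smallest this design allows). Wilson 95% intervals, which cover counting error only, ran from 0.908% to 0.917% for Sham 1 and from 3.72% to 3.74% for CKD 1, so counting error is small beside the spread between libraries. Among reads other than miR-143-3p the family's share was 4.52% and 4.99% in Sham and 6.33% and 5.40% in CKD, a difference of 1.11 points, and the groups again did not overlap (exact two-sided permutation p = 0.333).

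Within the 5p family, the share of each member differed between Sham and CKD by at most 1.92 percentage points. miR-30c-5p made up 28.3% ± 0.690 (SD, n = 2) of the summed 5p CPM in Sham against 26.6% ± 1.59 (SD, n = 2) in CKD. miR-30a-5p made up 24.7% ± 0.897 and 26.7% ± 2.04, and miR-30d-5p 24.6% ± 0.327 and 23.9% ± 0.639 (SD, n = 2 each). These 3 held about equal parts, and their order was not stable between libraries. miR-30c-5p was first in both Sham libraries and in CKD 2, miR-30a-5p was first in CKD 1, and miR-30d-5p stood ahead of miR-30a-5p in Sham 2. miR-30e-5p with 12.3% ± 0.622 and 11.6% ± 1.02, and miR-30b-5p with 10.1% ± 0.0875 and 11.2% ± 0.834 (SD, n = 2 each), were the smaller parts in all 4 libraries, and CKD 2 alone had more miR-30b-5p than miR-30e-5p. Adaptor ligation captures some sequences better than others, so these are shares of reads.

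limma called no 5p member as moving against the others, though the groups did not overlap in 3 of the 5 shares. The 5 shares sum to the whole, so they do not move independently. Among all tested entries after TMM scaling, both CKD libraries lay above both Sham libraries for 28% and below them for 31.5%. Those are scaled levels of single entries, not shares of a family, so they are not a like background. The largest difference in share was that of miR-30a-5p, 1.92 percentage points, with overlapping groups (exact two-sided permutation p = 0.667). Shares of miR-30b-5p were higher by 1.14 points in CKD and those of miR-30c-5p and miR-30d-5p lower by 1.71 and 0.720 points (differences of -1.71 and -0.720), without overlap of the groups in these 3 (exact two-sided permutation p = 0.333 each). miR-30e-5p differed by -0.627 points, with overlapping groups. When each library was set to the mean log2 level of its 5 5p arms, limma called 0 of the 5, with 0 at an unadjusted p under 0.05, beside 12.9% of all tested entries called, 1.88% higher and 11.1% lower. The 5 arms form that mean, so their differences cancel and are drawn toward it. Other entries are not part of it, and the median of all tested entries was -0.30 there, so the 12.9% is not a like background. The 5 differences from the family mean lay between -0.10 for miR-30c-5p (SE 0.14, limma adjusted p = 0.62) and 0.14 for miR-30b-5p (SE 0.14, limma adjusted p = 0.48). The SEs of the 5 were 0.13 to 0.14, and shifts well above the SE could go uncalled. In the same fit, miR-30c-2-3p was called lower, at -1.64 (SE 0.15, limma adjusted p = 0.0057), beside the 11.1% of all tested entries called lower. Neither miR-30a-3p at -0.72 (SE 0.18, limma adjusted p = 0.060) nor miR-30e-3p at -0.52 (SE 0.17, limma adjusted p = 0.11) was called.

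**Figure D2:**
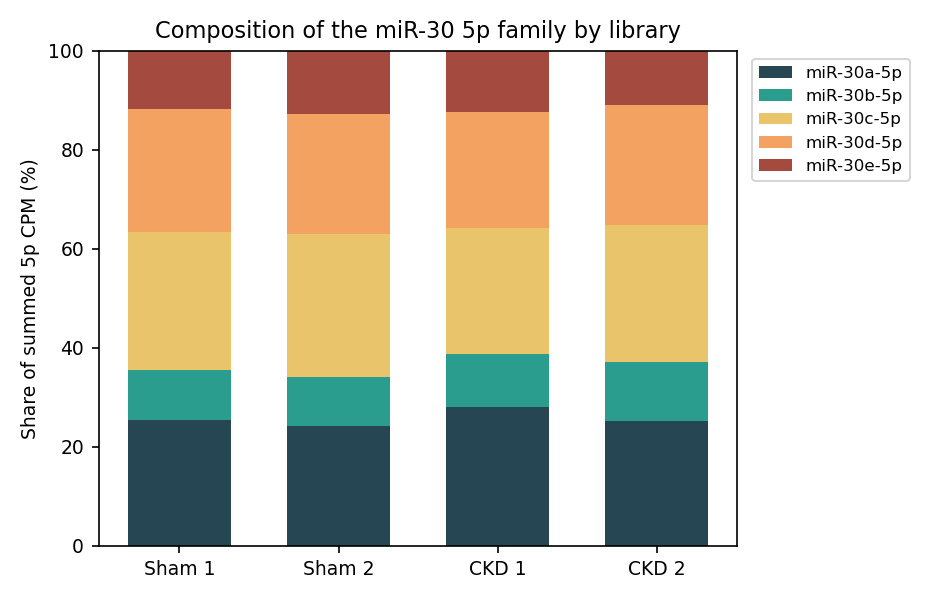
Share of each 5p arm in the summed CPM of the 5 5p arms, in percent, stacked for each of the 4 libraries. miR-30a-5p, miR-30c-5p and miR-30d-5p each hold between 23.4% and 28.8% in every library, and miR-30b-5p and miR-30e-5p between 10.0% and 12.7%.

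Relative to the shared shift, the 5p arms lay close to it and the 3p members below it. The 5p differences were 0.15 for miR-30a-5p (SE 0.13), 0.19 for miR-30b-5p (SE 0.10), -0.05 for miR-30c-5p (SE 0.10), -0.0021 for miR-30d-5p (SE 0.10) and -0.04 for miR-30e-5p (SE 0.15). limma called 0 of these 5, beside 7.72% of all tested entries, so a count of 0 is near the background. At an unadjusted p under 0.05 were 0 of the 5, beside 25.9% of all tested entries. With recovered reads, edgeR's quasi-likelihood test also called 0, beside 31 of the 479 entries. DESeq2 called miR-30b-5p alone among them, at 0.23 (DESeq2 adjusted p = 0.024), beside 74 of the 479 entries. The signs of miR-30c-5p, miR-30d-5p and miR-30e-5p depend on the scaling: with library totals without miR-143-3p they were 0.21, 0.26 and 0.22, where the median of all tested entries was 0.22. After TMM scaling, miR-30c-5p stood at 5310 and 5677 CPM in Sham against 5258 and 5349.9 CPM in CKD, and the groups overlapped. Across the 8 members, both CKD libraries lay above both Sham libraries after this scaling for 2 (miR-30a-5p and miR-30b-5p), beside 28% of all tested entries, and below them for the 3 3p members, beside 31.5%. miR-30d-5p, in contrast, stood at 4729 and 4794 CPM in Sham against 4824 and 4686 CPM in CKD.

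**Figure D3:**
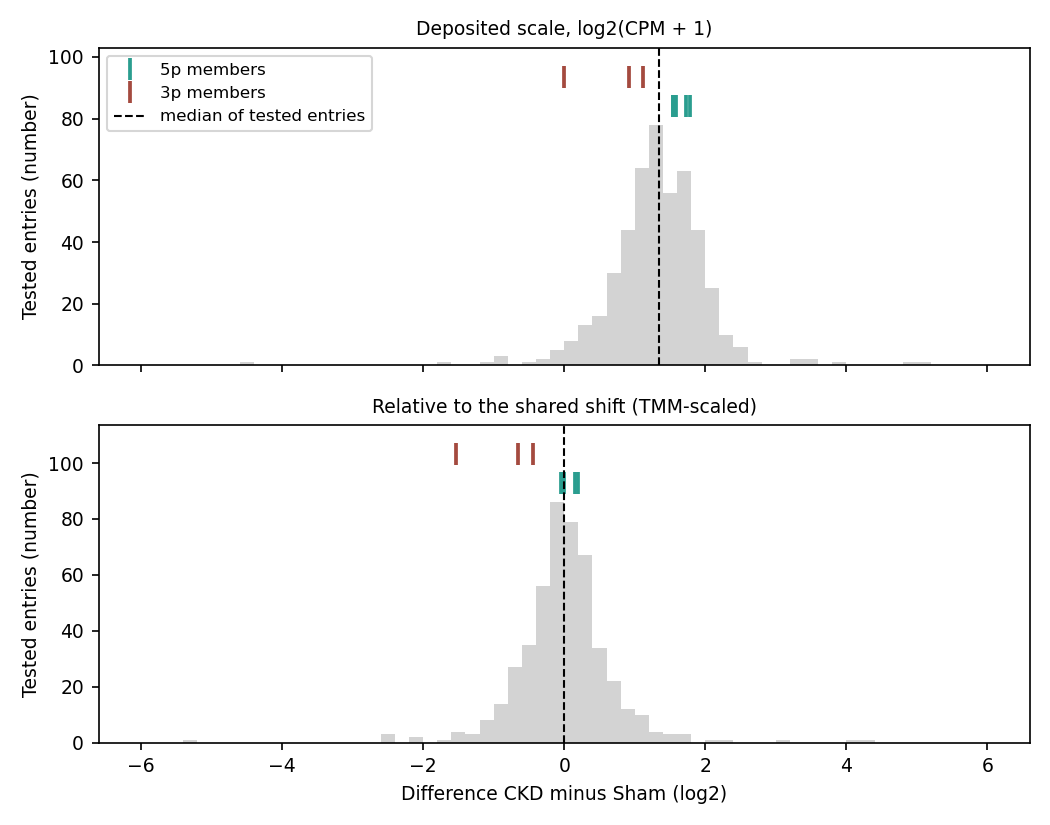
Histograms of the difference CKD minus Sham (log2) of the 479 tested entries, on the deposited scale (top) and relative to the shared shift after TMM scaling (bottom), with ticks for the 5p members (green) and 3p members (red) and a dashed line at the median of all entries. The 5p ticks lie close to the median in both panels, at a 5p median of 1.58 beside 1.34 and of -0.0021 beside -0.00083, and the 3p ticks lie to the left of it, with miR-30c-2-3p farthest, at -1.53 in the lower panel.

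Among the 3p arms, miR-30c-2-3p was the member that departed most from the family. The 3 3p members together made up 1.59% and 1.45% of the reads of the 8 in Sham and 0.800% and 0.981% in CKD. miR-30c-2-3p had 23.7 and 40.5 CPM in Sham against 32.7 and 29.3 CPM in CKD, from 415 and 683 reads and 574 and 488 reads, and its groups overlapped on the deposited scale (difference -0.0013, SE 0.38, limma adjusted p = 0.998). After TMM scaling it stood at 49.5 and 58.2 CPM in Sham against 18.1 and 17.6 CPM in CKD, both CKD libraries below both Sham libraries. Relative to the shared shift it fell by 1.53 on the log2 scale (SE 0.14, limma adjusted p = 0.012), that is, it was 2.90-fold lower, and only 8 of the 479 tested entries lay lower. It was the only member of the 8 called, beside 5.85% of all tested entries called lower, 1.88% called higher and 7.72% called in either direction (37 entries, 9 higher and 28 lower, but 14 and 14 with library totals without miR-143-3p, where miR-30c-2-3p lay at -1.28). edgeR also called it alone among the members (-1.59, adjusted p = 0.018). Over 15 alternatives its difference ran from -1.68 to -1.19 and its adjusted p from 1.9e-12 to 0.17. The call was lost when any library was left out, with limma adjusted p of 0.074 without Sham 1, 0.070 without Sham 2, 0.17 without CKD 1 and 0.13 without CKD 2, at differences of -1.68, -1.42, -1.55 and -1.50.

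The other 3p members were between miR-30c-2-3p and the 5p arms. miR-30a-3p, the most abundant 3p arm, had 96.1 and 123 CPM in Sham against 198 and 214 CPM in CKD, which is 1.88 times the Sham mean. Its deposited difference was 0.91 (SE 0.40, limma adjusted p = 0.051), just outside the threshold. With all libraries it passed with a pseudocount of 10 (limma adjusted p = 0.037), at a minimum mean of 10 CPM (limma adjusted p = 0.048) and without the mean-variance trend (limma adjusted p = 0.023). It did not pass with a pseudocount of 0.1 (limma adjusted p = 0.056), without a filter (limma adjusted p = 0.059) or with the replicate block (limma adjusted p = 0.16). With 1 library left out the difference ran from 0.74 to 1.09, and with library totals without miR-143-3p it was -0.40. Relative to the shared shift it was at -0.66 (SE 0.15, limma adjusted p = 0.080), where DESeq2 called it lower (-0.63, adjusted p = 0.0019) and edgeR did not (adjusted p = 0.096). miR-30e-3p had 27.9 and 38.5 CPM in Sham against 70.0 and 74.0 CPM in CKD. As deposited it rose by 1.11 (SE 0.38, limma adjusted p = 0.017). This call was lost without either CKD library and with the replicate block (limma adjusted p = 0.059). Its difference from the shared shift was -0.44 (SE 0.14, limma adjusted p = 0.13). For both, the CKD libraries lay above the Sham libraries as deposited and below them after TMM scaling, so their direction depends on the scale.

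A ratio of arms within a library does not depend on the library's scale, and 5p to 3p ratios were compared for the 6 miR-30 hairpins. The 5p entry exceeded the 3p arm it was set against in every library. Both miR-30c ratios use the same miR-30c-5p value, which comes from 2 hairpins, so neither is the arm ratio of a single hairpin. Over the sum of both miR-30c 3p arms, miR-30c-5p was 98.5 and 91.7 times in Sham and 244 and 258 times in CKD. miR-30c-5p was 107 and 97.6 times miR-30c-2-3p in Sham, and 290 and 303 times in CKD. This ratio was 2.90-fold higher in CKD, which is 1.54 on the log2 scale (SE 0.21, limma adjusted p = 0.014). It was the only 1 of the 6 ratios that passed over all 153 hairpins with both arms tested. Among those 153, 22.2% were called in either direction, 13.7% higher and 8.5% lower, so 1 in 6 is near the background, and its size placed it 6th from the highest. The call was lost without Sham 1 (limma adjusted p = 0.092) or Sham 2 (limma adjusted p = 0.060) and kept without either CKD library. Over 10 alternatives the difference ran from 1.48 to 1.59, with an adjusted p from 1.4e-07 to 0.092.

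The miR-30a ratio was 24.1 and 26.8 in Sham and 52.9 and 37.8 in CKD, which differs by 0.82 on the log2 scale (SE 0.24, limma adjusted p = 0.064), without overlap of the groups. This missed the threshold. With all libraries the miR-30a ratio passed with a pseudocount of 10 (limma adjusted p = 0.030), where 94 of all 153 ratios were called. It passed at a minimum mean of 10 CPM (limma adjusted p = 0.023), beside 23 of the 67 ratios tested there. With the replicate number as a block it also passed (limma adjusted p = 0.013), beside 72 of 153. These settings thus called many ratios, whereas a pseudocount of 0.1 called 8 of 153. The highest adjusted p among the alternatives was 0.29, without Sham 1. For miR-30e the ratio was 38.8 and 45.2 in Sham and 65.9 and 47.2 in CKD (log2 difference 0.44, SE 0.25, limma adjusted p = 0.24). With miR-30a and miR-30e summed for their near-identical arms, the ratio was 27.4 and 31.2 in Sham and 56.3 and 40.2 in CKD (exact two-sided permutation p = 0.333, the smallest possible), so the groups were also apart in this sum, which does not depend on how reads were split between the pair.

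For miR-30b and miR-30d the plain ratios showed no such widening. The miR-30b ratio was 228 and 266 in Sham and 209 and 251 in CKD, with overlapping groups and a log2 difference of 0.10 with a pseudocount of 1 (SE 0.23, limma adjusted p = 0.80) but -0.08 with a pseudocount of 0.1 and 0.89 with a pseudocount of 10, where it was called higher (limma adjusted p = 0.032). With that pseudocount of 10, 94 of all 153 ratios were called, 54 of them higher. The miR-30d ratio was 478 and 433 in Sham and 393 and 390.3 in CKD, all CKD values below Sham, and the fitted difference was -0.06 (log2, SE 0.21, limma adjusted p = 0.87), or 0.64 with a pseudocount of 10, which exceeds both Sham values of its 3p arm. The 3p arms of miR-30b and miR-30d were low, at 4.05 to 7.70 CPM in Sham against 15.1 to 22.2 CPM in CKD, so the pseudocount weighs on both, as it does on miR-30c-1. Non-overlapping groups were common among the 153 ratios, with CKD above Sham for 34% and below for 35.9% of them.

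**Figure D4:**
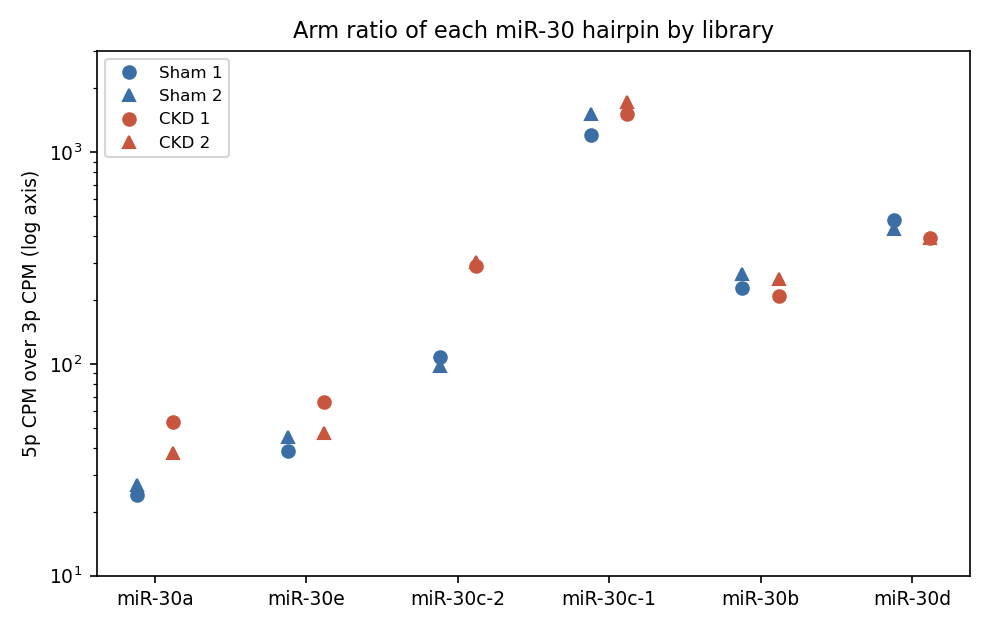
5p CPM over 3p CPM (log axis) of the 6 miR-30 hairpins in each library, with Sham in blue, CKD in red, circles for replicate 1 and triangles for replicate 2. miR-30c-1 and miR-30c-2 share the same 5p value. The CKD points stand clear above the Sham points for miR-30c-2 (290 and 303 against 107 and 97.6) and miR-30a, and overlap them or lie below for miR-30b and miR-30d.

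The hairpins that share miR-30c-5p differed in their 3p arms. miR-30c-1-3p, from the Nfyc intron, had 2.11 and 2.61 CPM in Sham against 6.27 and 5.16 CPM in CKD, from 37 and 44 reads and 110 and 86 reads. On the deposited scale it rose by 1.00 (SE 0.29, limma adjusted p = 0.0082), while relative to the shared shift it was at -0.24 (SE 0.16, limma adjusted p = 0.39). miR-30c-2-3p supplied 91.8% and 93.9% of the reads of both miR-30c 3p arms in Sham and 83.9% and 85.0% in CKD, with no overlap (exact two-sided permutation p = 0.333, the smallest possible). The miR-30c-1-3p to miR-30c-2-3p ratio accordingly went from 0.0768 ± 0.0174 to 0.184 ± 0.0108 (SD, n = 2 each). This comparison was chosen after its values were seen. The 5p to 3p ratio of miR-30c-1 was 1205 and 1513 in Sham and 1517 and 1721 in CKD, and the mean was 1.19-fold higher. Its fitted log2 difference was 0.54 (SE 0.26, limma adjusted p = 0.18), but 0.29 with a pseudocount of 0.1 and 1.19 with a pseudocount of 10, where it was called (limma adjusted p = 0.021), as it was with the replicate number as a block (limma adjusted p = 0.015). Of all 153 ratios, 94 were called with the pseudocount of 10 and 72 with the block. On chromosome 1, the 3p arm of the neighbouring Mir30a exceeded miR-30c-2-3p by 4.05 and 3.04 times in Sham and 6.05 and 7.30 times in CKD. The groups did not overlap (exact two-sided permutation p = 0.333, the smallest possible), and the separate value of miR-30a-3p is uncertain, as stated above. On chromosome 4, miR-30e-3p exceeded miR-30c-1-3p by 13.2 and 14.8 times in Sham and 11.2 and 14.3 times in CKD, with overlapping groups.

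Of the other listed miR-30 entries, the 3p arms of miR-30b, miR-30c-1 and miR-30d were tested, and all 3 rose on the deposited scale, beside 82.9% of all tested entries called higher. Relative to the shared shift limma called 0 of the 3, beside 7.72% of all tested entries. At an unadjusted p under 0.05 were 0 of the 3, beside 25.9% of all tested entries. edgeR and DESeq2 also called 0, beside 31 and 74 of the 479 entries. miR-30b-3p lay at 0.27 (SE 0.15) and miR-30d-3p at 0.20 (SE 0.13) there, next to their 5p arms at 0.19 and -0.0021. miR-384-5p, a miRNA of the X chromosome with the same seed GUAAACA as the 5p arms printed above, was barely detected, with 1 read in each Sham library and 17 and 19 reads in the CKD libraries, and it was below the level set for testing. miR-30f, from the strand opposite Mir30e, had 1 read in Sham 2 and none in the other libraries, where 3 reads, the limit that a count of 0 allows, correspond to between 0.171 and 0.180 CPM.

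By profile over the 4 libraries, the entries most like the 5p arms were miR-23b-3p, miR-186-5p, miR-31-5p, miR-185-5p and miR-28a-5p. Likeness was the Euclidean distance between log2(CPM + 1) profiles, each centred on its own mean, from the mean profile of the 5p arms, over 108 named non-member miRNAs with a mean of at least 100 CPM. miR-23b-3p, at a distance of 0.0741, had 1795 and 2732 CPM in Sham against 7459.9 and 6771 CPM in CKD. Its distance was about that of miR-30d-5p (0.0699), and shorter than those of miR-30c-5p (0.136), miR-30a-5p (0.157), miR-30e-5p (0.167) and miR-30b-5p (0.180). The 3p members were farther off, at 0.574 for miR-30e-3p, 0.779 for miR-30a-3p and 1.64 for miR-30c-2-3p. With 4 libraries and a shift shared by most entries, such closeness is a description only.

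A list of 10 other miRNAs described as repressors of Runx2 had 8 members at the level for testing. Of these, 7 rose on the deposited scale and 1 did not pass, near the 82.9% of all tested entries called higher, with a median of 1.91 beside 1.34 over all tested entries. Relative to the shared shift their median was 0.34, beside -0.00083 over all tested entries. limma called 0 of the 8 there, beside 7.72% of all tested entries, with 4 at an unadjusted p under 0.05, beside 25.9% of all tested entries, edgeR called 0, and DESeq2 called 1 higher (miR-34c-5p) and 1 lower (miR-133a-3p). miR-23a-3p, the most abundant, had 1799.99 and 2879 CPM in Sham against 7964 and 8685 CPM in CKD, and lay at 0.28 relative to the shared shift (SE 0.14, limma adjusted p = 0.28). miR-133a-3p, known from striated muscle, had 499.7 and 609 CPM in Sham against 1189 and 951 CPM in CKD, and lay at -0.64 there (SE 0.15, limma adjusted p = 0.085). miR-34c-5p, which p53 induces, had 25.9 and 22.0 CPM in Sham against 166 and 134 CPM in CKD, and lay at 1.04 there (SE 0.29, limma adjusted p = 0.11).

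Markers of the labelled tissue and of other cell types were read from the same libraries. The 4 smooth muscle arms of the miR-143 and miR-145a hairpins summed to between 774989 and 833695 CPM in Sham and between 485612 and 488708 CPM in CKD. Most of this sum was miR-143-3p. By limma on the deposited scale, 2 of the 4 arms were called higher, 1 lower and 1 was not called. The kidney tubule list, of interest because miR-30 is also abundant in kidney, was detected in all 3 members and summed to 97.4 and 139 CPM in Sham against 514 and 396 CPM in CKD. Red cell markers summed to 219 and 841 CPM in Sham against 1035 and 4804 CPM in CKD, leukocyte markers to 75.9 and 219 CPM and to 409 and 446 CPM, and endothelial markers to 2899 and 3411 CPM and to 9989 and 9767 CPM. Striated muscle markers summed to 509 and 622 CPM in Sham against 1204 and 973 CPM in CKD, mainly from miR-133a-3p, with miR-208a-3p between 0.36 and 1.37 CPM and miR-206-3p between 0 and 0.30 CPM, and the hepatocyte pair to 1.43 and 25.5 CPM and to 161 and 56.3 CPM. No marker was at 0 in all libraries. These sums were higher in CKD for every list except smooth muscle on the deposited scale, as the 5p arms were. Both CKD libraries lay above both Sham libraries for 91.2% of all tested entries on that scale. Relative to the shared shift, list medians were -0.77 for smooth muscle, -0.64 for striated muscle and -0.0017 for leukocytes. They were 0.08 for endothelium, 0.29 for kidney tubule, 0.33 for red cells and 2.19 for the 1 tested hepatocyte entry. The part of these cell types in the miR-30 values was not tested.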

How the data were processed

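Small RNA of 18 to 30 nucleotides was sequenced, per the labels' protocols, with a later selection described as 22 to 30 nucleotides. Per the submitters' processing notes, Bowtie and GRCm38 were used. The sources used here do not give the annotation, the counting or the treatment of multi-mapping reads. The deposited values sum to about 1000000 per library and were read as CPM. For 3 libraries the deposited file lists all names first and then all values, 1 per line, and these were paired by order. In all libraries 100% of non-zero CPM were whole multiples of 1 read within 0.005 CPM, so the totals were 17520690 and 16878392 reads for Sham, and 17532748 and 16658810 reads for CKD.

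limma 3.58.1 with a mean-variance trend was run on log2(CPM + 1) wherever an entry's mean reached 1 CPM. The model held group alone, and two-sided p-values were adjusted by Benjamini-Hochberg with a threshold of 0.05. It was run as deposited, after TMM scaling (edgeR 4.0.16, factors 0.479 and 0.696 in Sham and 1.81 and 1.66 in CKD), relative to the family mean, and on 5p to 3p ratios. On this log2(CPM + 1) scale, changes of entries near the pseudocount are understated. DESeq2 1.42.0 and edgeR's quasi-likelihood test were run on the recovered reads, where edgeR called 31 and DESeq2 74 of the 479 entries, beside 37 by limma after TMM scaling. Gene positions are from the GENCODE annotation of GRCm38. The scripts were tested on simulated data. Chi-square over its degrees of freedom between the libraries of a group was 515 (Sham) and 367 (CKD), well above counting noise, so none was taken as a duplicate. The labels name no batch. The members and lists were chosen with earlier results of these data known. Named entries were the 8 members, the other miR-30 arms and miR-384-5p, the 3 most abundant of the Runx2 list and the 5 nearest profiles.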

Additional observations from a re-analysis of the deposited data

How the results depend on the processing

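The 5p result relative to the family mean, 0 of 5 called, held under every alternative run, though these 5 members form that mean. The call of miR-30c-2-3p relative to the shared shift held under the other scalings, pseudocounts and filters, and without the trend. It also held with the replicate block, with edgeR and with DESeq2. Leaving out 1 library gave 0 to 7 called members on the deposited scale, 0 relative to the shared shift and 0 to 2 arm ratios (1 fewer sample, and the lone library is taken to vary like the others). With library totals without miR-143-3p, 1 member was called, and the deposited differences of miR-30a-3p and miR-30e-3p turned to -0.40 and -0.19. DESeq2 gave 3 calls relative to the shared shift, beside 74 of the 479 entries. Arm ratios gave 4 calls with a pseudocount of 10 (miR-30a, miR-30b, miR-30c-1 and miR-30c-2), 2 at a minimum mean of 10 CPM and 3 with the replicate block. Over all tested ratios, these settings called 94 of 153, 23 of 67 and 72 of 153. The 5p share differed by 1.11 points with miR-143-3p left out of the denominator. The cause was not tested.

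The replicate number as a block gave 5 called members on the deposited scale, 1 relative to the shared shift and 0 relative to the family mean. Same-numbered libraries are tied only by their number (correlation of deviations 0.0999 as deposited, 0.118 after TMM scaling).

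Over all entries, the 402 deposited calls became 28 without miR-143-3p in the totals and 137 to 384 with 1 library left out. The 37 calls relative to the shared shift became 21 without a filter, 10 with the block, 74 with DESeq2 and 0 to 7 with 1 library left out. The 62 relative to the family mean became 40 with a pseudocount of 0.1, 339 with one of 10, 835 without a filter and 4 to 101 with 1 library left out. The 34 arm ratios became 8 and 94 with these pseudocounts, 86 without a filter, 72 with the block and 0 to 20 with 1 library left out.

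Some values near 0 changed sign. As deposited, miR-30c-2-3p was 5.5e-06 with a pseudocount of 0.1 and -0.38 to 0.37 with 1 library left out. Relative to the shared shift, miR-30d-5p was 0.024 without a filter, 0.047 at a minimum mean of 10 CPM, 0.031 with median-of-ratios factors, 0.031 with DESeq2, 0.26 with totals without miR-143-3p and -0.034 to 0.026 with 1 library left out. miR-30e-5p was 0.013 at that minimum, 0.0012 with DESeq2, 0.22 with those totals and -0.18 to 0.11 with 1 library left out, and miR-30c-5p was 0.21 with those totals and -0.12 to 0.0055 with 1 library left out. Relative to the family mean, miR-30e-5p was -0.18 to 0.0014 with 1 library left out. The miR-30b arm ratio was -0.084 with a pseudocount of 0.1 and -0.046 to 0.24 with 1 library left out, and that of miR-30d 0.64 with a pseudocount of 10.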

Other observations

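The ratios of the near-identical arms of miR-30a and miR-30e differed between the groups in opposite directions. miR-30a-5p was 2.14 and 1.90 times miR-30e-5p in Sham and 2.27 and 2.31 times in CKD, whereas miR-30a-3p was 3.45 and 3.20 times miR-30e-3p in Sham and 2.83 and 2.89 times in CKD. The groups did not overlap in either ratio (exact two-sided permutation p = 0.333 for each, the smallest this design allows), and both ratios were chosen after their values were seen.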
